A study of Mus musculus with 4 samples.

Results

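Isg15, Zbp1, Ifi205, Samhd1, Bst2 and Ifi27l2a are 6 effector genes of the type I interferon response that were followed through colonic monocytes and macrophages of mice fed chow or a high-fat diet (HFD). They are 6 of the 11820 genes in the count table and were found there by the Ensembl identifier of each symbol. All lie on the minus strand of GRCm38 (GENCODE annotation): Isg15 (ENSMUSG00000035692) at chr4:156199424-156200818, Zbp1 (ENSMUSG00000027514) at chr2:173206612-173218923, Ifi205 (ENSMUSG00000054203) at chr1:174011998-174031810, Samhd1 (ENSMUSG00000027639) at chr2:157097533-157135265, Bst2 (ENSMUSG00000046718) at chr8:71534255-71537456 and Ifi27l2a (ENSMUSG00000079017) at chr12:103442167-103443680. The assay reads the 3′ ends of transcripts, and the 6 genes held 1419 (Ifi205) to 24091 (Ifi27l2a) UMIs over all cells. The genes had been chosen from earlier results of these data, the difference between diets among them. The diet effects of these genes are therefore given as a description, without a test, and only the differences between cell classes within the chow-fed mice were tested. Cells came from male C57/Bl6N mice that were 6 to 7 weeks old at the start, 2 on chow (replicates 9 and 11) and 2 on a coconut-based HFD with 60% fat (replicates 1 and 3), each for 1 week. The lamina propria of each colon was sorted for live CD45+Lin-CD11b+CD24- cells with Ly6C or CD64 on the surface, and each mouse was loaded into 1 well of a droplet device that tags every RNA molecule with a unique molecular identifier (UMI).

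Type I interferons (interferon-alpha and interferon-beta) bind the receptor of Ifnar1 and Ifnar2, and the signal reaches interferon-stimulated response elements (ISRE) in the promoters of many target genes through a complex that holds Irf9. Interferon-gamma uses another receptor and acts mainly through gamma-activated sites (GAS), and the targets of both pathways overlap. Isg15 encodes a ubiquitin-like protein that is conjugated to other proteins. Zbp1 and Ifi205 encode nucleic acid sensors, and Zbp1 can recruit Ripk3 to start necroptosis. Samhd1 hydrolyses deoxynucleotides, Bst2 (tetherin) holds budding virions at the cell surface, and Ifi27l2a encodes a small hydrophobic interferon-induced protein. In the gut wall, blood monocytes with high Ly6c2 lose Ly6c2, gain MHC II and become macrophages with high C1q, so these 3 readouts order the cells.

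Because the 6 genes are known for induction through ISRE, the 250 bases before the RefSeq transcription start were searched for an ISRE core, GAAANNGAAA or its complement TTTCNNTTTC, and for a GAS, TTCNNNGAA, which reads alike on both strands. RefSeq promoters (GRCm38.p6) were matched for 4 of the genes, all on the minus strand, and are printed 5′ to 3′ with ISRE core matches in capitals. Isg15 lies at chr4:156200819-156201068, Bst2 at chr8:71537473-71537722, Ifi205 at chr1:174031756-174032005 and Samhd1 at chr2:157135097-157135346.
Isg15: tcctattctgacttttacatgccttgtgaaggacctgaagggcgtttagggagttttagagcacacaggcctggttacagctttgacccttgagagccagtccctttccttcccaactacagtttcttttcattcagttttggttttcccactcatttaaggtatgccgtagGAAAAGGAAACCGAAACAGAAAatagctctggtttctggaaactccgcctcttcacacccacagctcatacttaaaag
Bst2: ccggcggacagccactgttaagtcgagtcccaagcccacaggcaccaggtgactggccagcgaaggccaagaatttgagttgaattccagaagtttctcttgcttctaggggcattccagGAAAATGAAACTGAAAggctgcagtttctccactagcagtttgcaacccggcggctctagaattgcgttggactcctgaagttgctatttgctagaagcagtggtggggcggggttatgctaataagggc
Ifi205: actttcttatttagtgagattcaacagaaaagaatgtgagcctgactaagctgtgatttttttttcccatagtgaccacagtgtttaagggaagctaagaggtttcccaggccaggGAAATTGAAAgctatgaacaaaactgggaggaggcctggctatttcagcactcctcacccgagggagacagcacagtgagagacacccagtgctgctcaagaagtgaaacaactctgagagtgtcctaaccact
Samhd1: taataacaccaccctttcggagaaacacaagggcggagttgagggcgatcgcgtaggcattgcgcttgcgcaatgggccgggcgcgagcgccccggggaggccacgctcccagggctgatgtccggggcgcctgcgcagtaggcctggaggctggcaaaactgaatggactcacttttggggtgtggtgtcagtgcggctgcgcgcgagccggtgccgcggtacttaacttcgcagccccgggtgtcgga
An ISRE core occurred in 2.98% and a GAS in 7.02% of 32851 windows of this length. Isg15 held 3 overlapping ISRE cores between 78 and 57 bases before the start, and Bst2 held 2 overlapping ones between 130 and 115 bases before it. Ifi205 held 1, between 134 and 125 bases before the start. In Samhd1 a GAS lay 235 to 227 bases before the start and these ISRE letters were not in the window, and Bst2 held a GAS 136 to 128 bases before the start that overlaps its ISRE cores. For Samhd1 and Ifi205 the GENCODE gene given above starts further upstream, inside the printed window, so the distances and the missing letters hold for the RefSeq start. These matches are letters in a sequence and no measured binding.

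The libraries held 904 and 2002 cells on chow and 966 and 1548 on HFD, with totals of 3824228 to 7947893 UMIs. Cells were gated by their own UMIs, with at least 2 UMIs for Ly6c2 and with cuts of 190 (MHC II) and 23.3 (C1q) UMIs per 10000. Ly6c2-positive MHC II-low cells numbered 48 and 50 in the chow mice and 229 and 268 in the HFD mice. Ly6c2-negative MHC II-high C1q-low cells numbered 28, 35, 131 and 283 in the same order, and C1q-high cells 764, 1849, 460 and 653. Ly6c2-positive MHC II-high cells numbered 1 and 13 on chow and 60 and 233 on HFD and were too few on chow for a fit. In the Ly6c2-positive MHC II-low class the 8 monocyte markers summed to 15137 and 22106 CPM (UMIs scaled to a total of 1000000) on chow. On HFD they summed to 29016 and 26574 CPM. The 11 macrophage markers in the table summed there to 1585 and 2498 CPM on chow and to 1361 and 1557 on HFD. In C1q-high cells the monocyte markers, none at 0 in all mice, summed to 346 and 533 CPM on chow and to 2985 and 3843 on HFD, and the macrophage markers to 21528 and 22509 on chow and to 16246 and 15222 on HFD. The 8 conventional dendritic cell markers summed there to 37.6 and 38.2 CPM on chow and to 190 and 164 on HFD. In Ly6c2-negative MHC II-high C1q-low cells the monocyte markers summed to 2966 and 4728 CPM on chow and to 7327 and 8382 on HFD. The macrophage markers of that class summed to 2161 and 2705 CPM on chow and to 1218 and 1301 on HFD. Its conventional dendritic cell markers summed to 168 and 215 CPM on chow and to 441 and 218 on HFD. These sums moved with the diet effects given below for single genes and lists in the same classes. Their part in those effects was not tested. The sort should leave no plasma cells, yet 16 of 5420 cells carried at least 500 UMIs of the antibody genes Igha and Jchain per 10000, 5 of them in the Ly6c2-positive MHC II-low class (2 in chow replicate 9 and 1 in each other mouse). Igha and the other B and plasma cell markers summed to 52746 and 35310 CPM in that class on chow and to 10134 and 7993 on HFD. In all, 23 barcodes occurred in more than 1 library (46 cells), and Scrublet marked 38 cells as doublets.

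On chow, 5 of the 6 genes were higher in Ly6c2-positive MHC II-low cells than in C1q-high cells at an FDR of 1%, where 14.8% of 5562 genes tested were called (7.62% higher and 7.19% lower). The exception was Bst2. Ifi205 differed by 4.28 ± 0.47 on the log2 scale (SE, adjusted p = 1.92e-09), Samhd1 by 2.74 ± 0.16 (adjusted p = 2.01e-16), Zbp1 by 2.69 ± 0.26 (adjusted p = 1.43e-10), Ifi27l2a by 2.25 ± 0.14 (adjusted p = 5.20e-16) and Isg15 by 1.71 ± 0.27 (adjusted p = 6.10e-06), with edgeR's quasi-likelihood test and n = 2 chow mice. Each of these genes was higher in that class in both chow mice. The spread behind these p-values was that left after a term for each mouse, with the sums of the HFD mice included. Without chow replicate 11 the difference of Isg15 was 1.42 and no longer called. Bst2 differed by 0.58 ± 0.19 (adjusted p = 0.0262 with edgeR), and by 0.23 ± 0.21 once the cells rich in Igha and Jchain were left out.

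Against Ly6c2-negative MHC II-high C1q-low cells, Samhd1 (1.34 ± 0.22), Isg15 (2.62 ± 0.56), Bst2 (1.35 ± 0.30) and Ifi27l2a (0.68 ± 0.15) were higher in Ly6c2-positive MHC II-low cells on chow, with adjusted p-values from edgeR of 6.83e-05, 0.00240, 0.00356 and 0.00365 and a background of 2.3% called (1.17% higher). Zbp1 (1.21 ± 0.39, adjusted p = 0.0735 with edgeR) and Ifi205 (2.01 ± 0.71, adjusted p = 0.114) were not called. The sums of the Ly6c2-negative class on chow held only 83291 and 83544 UMIs. Samhd1, Bst2, Ifi27l2a and Isg15 lost their call without chow replicate 9 (0.94, 0.63, 0.48 and 2.37), Isg15 also without chow replicate 11 (3.31), and Bst2 without the antibody-rich cells (1.00). Between the Ly6c2-negative class and C1q-high cells, Samhd1 (1.40 ± 0.23, adjusted p = 3.87e-05) and Ifi27l2a (1.57 ± 0.15, adjusted p = 4.53e-10) were called with edgeR, higher in the Ly6c2-negative class, where 4.98% of genes were called (1.87% higher and 3.11% lower). Samhd1 lost that call without chow replicate 11 (1.09). The order of basal levels for Samhd1 and Ifi27l2a was thus Ly6c2-positive MHC II-low, Ly6c2-negative, C1q-high, while neighbouring levels of Zbp1 and Ifi205 did not pass the threshold.

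**Figure D1:**
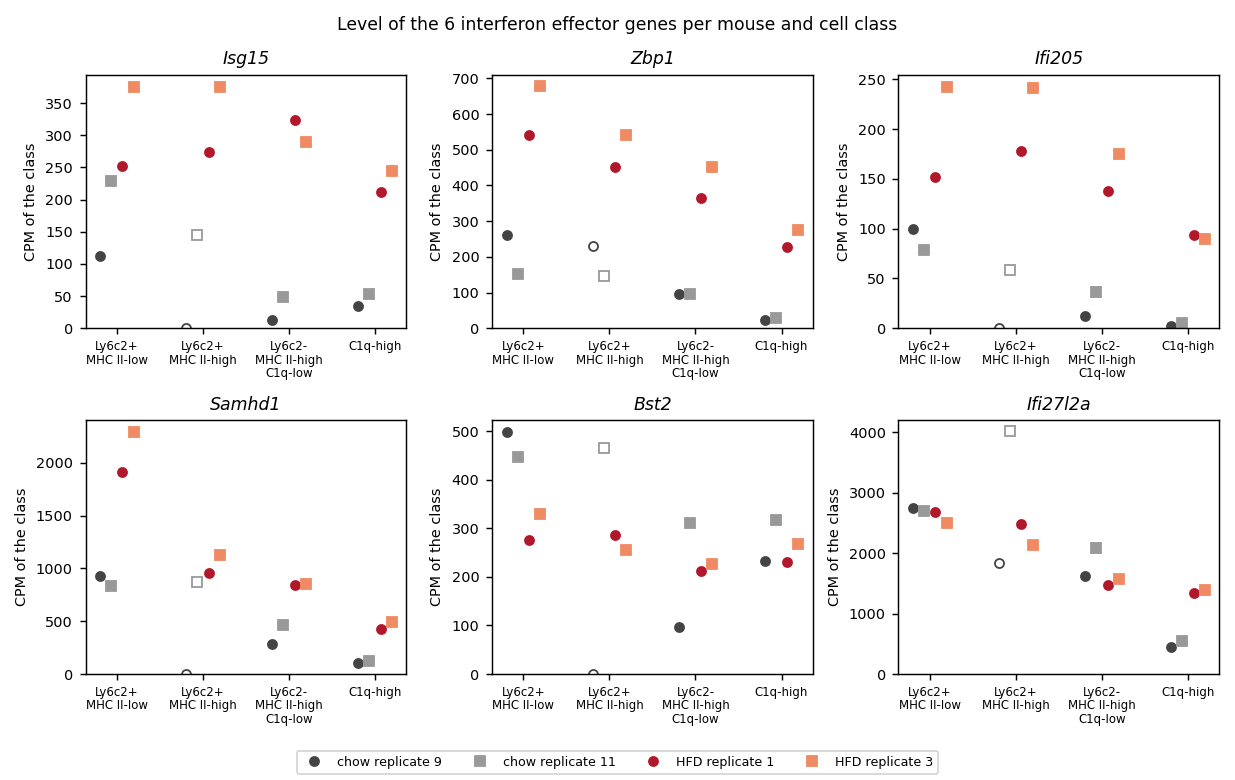
CPM of each gene in the summed UMIs of each mouse (points) and cell class; black and grey points are chow mice, red and orange points HFD mice, and open points are chow sums of fewer than 20 cells. In C1q-high cells the HFD mice lie above the chow mice for 5 genes, and for Bst2 the mice overlap between 230 and 317 CPM.

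Zbp1 and Ifi205, the nucleic acid sensors, were higher on HFD in both HFD mice in every class that was fitted. In C1q-high cells Zbp1 was at 24.2 and 28.9 CPM in chow replicates 9 and 11 and at 227 and 275 CPM in HFD replicates 1 and 3. In Ly6c2-negative cells its levels were 96.0 and 95.8 CPM on chow and 366 and 451 on HFD, and in Ly6c2-positive MHC II-low cells 261 and 151 CPM on chow and 542 and 678 on HFD. The groups did not overlap in any of the 3 classes, and the log2 fold change was 3.08 ± 0.17 (SE, n = 2 per diet) in C1q-high cells, 2.02 ± 0.32 in Ly6c2-negative cells and 1.44 ± 0.26 in Ly6c2-positive MHC II-low cells. C1q-high cells on HFD thus reached about the level of Ly6c2-positive MHC II-low cells on chow.

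Ifi205 was nearly undetected in C1q-high cells on chow, at 2.63 and 4.78 CPM (9 and 36 UMIs), and stood at 93.4 and 89.9 CPM on HFD. In Ly6c2-negative cells it was at 12.0 and 35.9 CPM on chow (1 and 3 UMIs) and 138 and 175 on HFD, and in Ly6c2-positive MHC II-low cells at 99.5 and 78.5 CPM on chow and 152 and 243 on HFD. Chow and HFD mice did not overlap in these classes. The log2 fold change was 4.36 ± 0.26 in C1q-high cells, 2.63 ± 0.57 in Ly6c2-negative cells and 1.02 ± 0.35 in Ly6c2-positive MHC II-low cells. Without HFD replicate 3 it was 0.63 in the last of these classes. Ifi205 belongs to a family of near-identical neighbours, and how reads shared between them were counted is not given in the sources used here, so its level is uncertain to that extent.

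Samhd1, the deoxynucleotide hydrolase, was the 1 gene of the 6 called between diets by edgeR's quasi-likelihood test in Ly6c2-positive MHC II-low cells, where 0.513% of 4678 genes were called, and nothing is read from that call, which was lost without HFD replicate 1 or HFD replicate 3. DESeq2 and the likelihood-ratio test called 2 of the 6, Zbp1 and Samhd1, as did 5 other settings and the fit without chow replicate 9. In these cells Samhd1 was at 926 and 833 CPM on chow against 1913 and 2287 on HFD. In Ly6c2-negative cells the values were 288 and 467 CPM on chow and 840 and 851 on HFD, and in C1q-high cells 106 and 120 CPM on chow and 426 and 489 on HFD. The HFD mice were above both chow mice in each class. The log2 fold changes of 1.13 ± 0.19, 1.09 ± 0.25 and 1.87 ± 0.14 were of similar size in both C1q-low classes.

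Isg15, the ubiquitin-like modifier, was at 35.3 and 53.6 CPM in C1q-high cells on chow and at 211 and 245 CPM on HFD. In Ly6c2-negative cells it was at 12.0 and 47.9 CPM on chow (1 and 4 UMIs) and at 324 and 289 CPM on HFD. The chow mice were far apart in Ly6c2-positive MHC II-low cells, at 112 and 229 CPM, and the HFD mice at 252 and 374 CPM lay just above the higher of them. The log2 fold change was 2.19 ± 0.20 in C1q-high cells, 3.27 ± 0.47 in Ly6c2-negative cells and 0.74 ± 0.32 in Ly6c2-positive MHC II-low cells. In the last class the value was 1.36 without chow replicate 11, 0.32 without chow replicate 9 and 0.41 without HFD replicate 3. On HFD the level was therefore similar in all 3 classes, between 211 and 374 CPM.

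Bst2, the tetherin, did not follow the other genes. In C1q-high cells it was at 232 and 317 CPM on chow and 230 and 267 on HFD, and the diets overlapped. In Ly6c2-negative cells it was at 96.0 and 311 CPM on chow and 213 and 227 on HFD, which also overlapped. Among Ly6c2-positive MHC II-low cells it was at 497 and 447 CPM on chow against 276 and 329 on HFD, below both chow mice (log2 fold change -0.77 ± 0.21). Cells rich in Igha and Jchain carried 42 of the Bst2 UMIs of that class on chow, from 3 cells, at 1285 CPM. Without such cells the levels were 406 and 358 CPM on chow and 266 and 320 on HFD, and the log2 fold change was -0.47 ± 0.22. Csf1r, the receptor of the macrophage growth factor, was at 122 CPM in those 3 cells. Bst2 also marks plasmacytoid dendritic cells, and the 6 of their 9 markers in the table, none at 0 in all mice, summed to 423 and 139 CPM in this class on chow and to 73.5 and 110 on HFD. The same markers summed to 152 and 194 CPM on chow and 120 and 69.2 on HFD in C1q-high cells. In Ly6c2-negative cells they summed to 192 and 120 CPM on chow and 129 and 163 on HFD. The sort and the removal of other cell types by the authors should leave out plasmacytoid dendritic cells, and their part in the result was not tested.

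In C1q-high cells Ifi27l2a was at 449 and 539 CPM on chow against 1335 and 1390 on HFD (log2 fold change 1.32 ± 0.13). Among Ly6c2-positive MHC II-low cells it was already at 2754 and 2704 CPM on chow against 2683 and 2507 on HFD (-0.20 ± 0.17), and in Ly6c2-negative cells at 1621 and 2083 CPM on chow and 1469 and 1572 on HFD (-0.35 ± 0.18). The diets did not overlap in any of these classes, although in Ly6c2-positive MHC II-low cells the nearest chow and HFD mice were close together. With cuts at the median of the cells the value in Ly6c2-negative cells was 0.16. Ifi27, a gene of the same family, fell by 0.78 ± 0.15 in C1q-high cells (adjusted p = 0.00799 with edgeR), and how reads shared between the family members were counted is not given in the sources used here.

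In C1q-high cells 5 of the 6 genes were called between diets, all higher on HFD, beside 10.5% of 5066 genes called in either direction with 5.35% called higher and 5.13% lower, and in Ly6c2-negative cells none was called beside 0.369% of 4608 genes (2 by DESeq2 and 4 by edgeR's likelihood-ratio test). Of the genes tested, 42% in C1q-high cells, 30.9% in Ly6c2-negative cells and 29.3% in Ly6c2-positive MHC II-low cells had both HFD mice above both chow mice. The corresponding shares below were 23.2%, 18.5% and 15.4%. Because this contrast chose the genes, nothing is read from these counts. In C1q-high cells Ifi205, with 9 and 36 UMIs on chow, reached the share of cells set by the filter through the HFD mice alone. In C1q-high cells Isg15, Samhd1 and Ifi27l2a lost the call without HFD replicate 3 (2.10, 1.79 and 1.31) and Ifi27l2a also without HFD replicate 1 (1.32). With median cuts 4 of the genes were called, and Ifi205 did not enter the test.

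A joint model held a term for each mouse. In it the signed diet effect of all 6 genes was lower in Ly6c2-positive MHC II-low cells than in C1q-high cells. For Bst2 the lower value was a fall in Ly6c2-positive MHC II-low cells, while the diets overlapped in C1q-high cells. The difference of both effects was -3.28 ± 0.48 (SE, log2) for Ifi205, -1.50 ± 0.29 for Zbp1, -1.41 ± 0.19 for Ifi27l2a, -1.35 ± 0.31 for Isg15, -0.63 ± 0.21 for Samhd1 and -0.38 ± 0.25 for Bst2. For Zbp1, Ifi205, Isg15, Samhd1 and Ifi27l2a the ratio between both classes was smaller on HFD than on chow. Zbp1, for instance, was 206 ± 77.9 CPM (SD, n = 2) against 26.6 ± 3.34 CPM in both classes on chow, and 610 ± 96.5 against 251 ± 34.2 CPM on HFD.

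In the Ly6c2-positive MHC II-high class on HFD, levels lay between or near those of the neighbouring classes. Isg15 was at 274 and 376 CPM, Zbp1 at 452 and 541 CPM and Ifi205 at 178 and 241 CPM. Samhd1 was at 960 and 1122 CPM, about as in Ly6c2-negative cells and below Ly6c2-positive MHC II-low cells. Over all cells together Samhd1 was at 168 and 150 CPM on chow and 978 and 995 on HFD, and Ifi27l2a at 644 and 632 CPM on chow and 1833 and 1718 on HFD. Here 5 of the 6 genes were called beside 16.2% of 4948 genes (7.68% higher on HFD). Both HFD mice were above both chow mice for 50.4% of genes. As this contrast chose the genes, nothing is read from these counts. Ifi205, with 32 and 65 UMIs over all cells on chow, reached the share of cells set by the filter through the HFD mice alone. The sums over all cells also carry the larger share of Ly6c2-positive cells on HFD. In such sums, more cells of a type and more RNA per cell cannot be told apart.

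Along C1q, cells were divided into 4 bins with each mouse weighted equally. On chow Samhd1 went from 835 and 901 CPM in the lowest bin (replicates 9 and 11) to 89.4 and 110 CPM in the highest, and on HFD from 1542 and 1530 to 267 and 285 CPM. Zbp1 went from 188 and 155 to 21.5 and 29.2 CPM on chow and from 481 and 574 to 136 and 186 CPM on HFD. Both genes were higher on HFD in each of the 4 bins, as were Isg15 and Ifi205. Isg15 had a shallower slope on chow (75.2 and 72.8 to 26.2 and 49.5 CPM). Ifi27l2a overlapped between diets in the lowest bin, at 2170 and 2695 CPM on chow and 2311 and 2013 on HFD, and was higher on HFD in the others, up to 391 and 477 against 987 and 1079 CPM in the highest bin. Bst2 had no such slope and overlapped between diets in all 4 bins, with 266 and 332 CPM on chow and 308 and 344 on HFD in the highest.

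**Figure D2:**
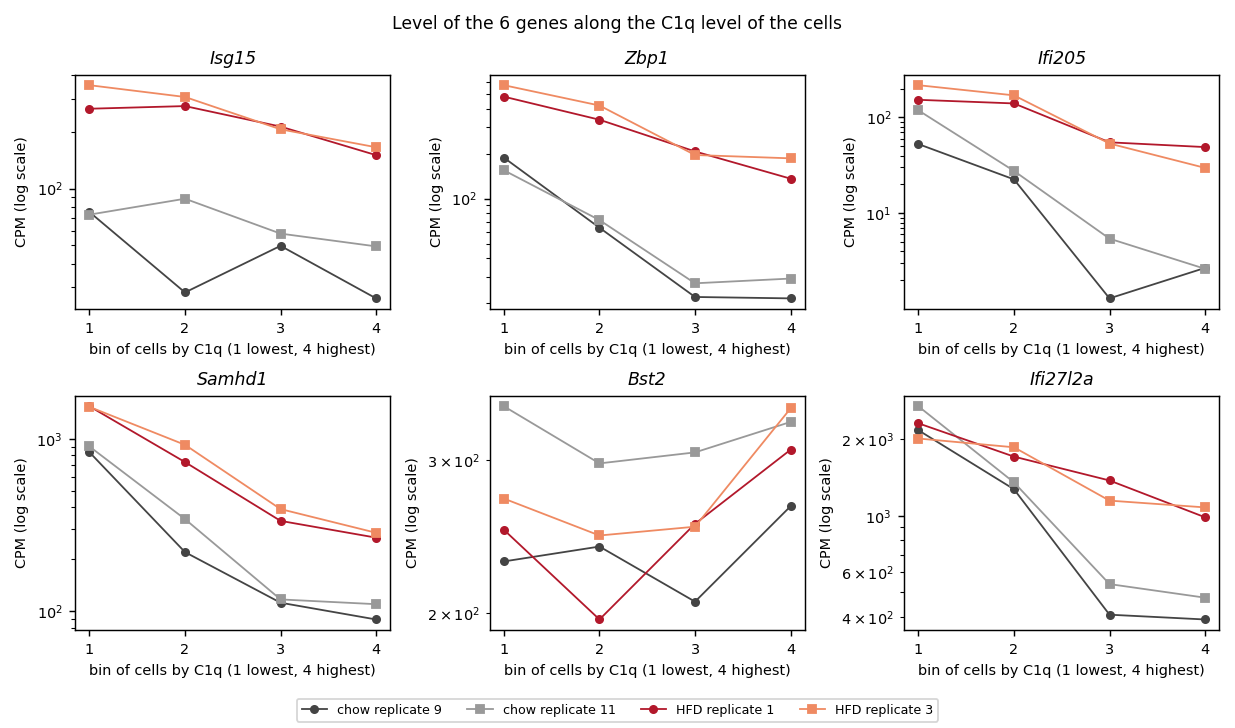
CPM on a log scale (y) of each gene in cells of each mouse, by bin of the cells along C1q (x, from 1, lowest, to 4, highest). Lines join the values of 1 mouse. For Zbp1, Ifi205, Samhd1 and Isg15 both HFD lines (red and orange) run above both chow lines (black and grey) in every bin, and for Bst2 they overlap.

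Along MHC II, the 5 genes Isg15, Zbp1, Ifi205, Samhd1 and Ifi27l2a were higher on HFD in each bin. Ifi27l2a in the lowest MHC II bin was at 1941 and 1543 CPM on chow and 2583 and 2330 on HFD, the reverse of its order in Ly6c2-positive MHC II-low cells. In the third of the 4 Ly6c2 bins it was at 1094 and 1519 CPM on chow and 2084 and 1882 on HFD. In the highest Ly6c2 bin the diets overlapped, with Ifi27l2a at 3605 and 2656 CPM on chow and 2850 and 2681 on HFD. In the lowest of 4 MHC II bins Samhd1 was at 584 and 420 CPM on chow against 1846 and 2089 on HFD, and in the highest at 120 and 122 CPM on chow and 347 and 364 on HFD. Along Ly6c2, cells with 0 UMIs of that gene held Zbp1 at 27.4 and 30.3 CPM on chow and 257 and 302 on HFD, and cells in the highest of 4 bins held it at 236 and 134 CPM on chow and 563 and 642 on HFD. Bst2 on chow was at 224 and 314 CPM in cells with 0 Ly6c2 UMIs and at 690 and 572 CPM in the highest bin, which on HFD held 294 and 311 CPM. The part of the antibody-rich cells in this bin was not tested.

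In droplet data RNA released from other cells can add UMIs to every cell, and the monocyte genes Plac8 and Chil3 were higher on HFD at the C1q end as well. Among cells of the highest C1q bin with 0 Ly6c2 UMIs (304 and 836 on chow, 107 and 95 on HFD), Plac8 was at 38.5 and 62.7 CPM on chow and 499 and 471 on HFD, and Chil3 at 14.7 and 36.7 CPM on chow and 181 and 203 on HFD. In the same cells Zbp1 was at 21.7 and 29.5 CPM on chow and 127 and 201 on HFD, Isg15 at 25.2 and 50.5 and at 155 and 163, Samhd1 at 89.5 and 109 and at 252 and 233, and Ifi27l2a at 391 and 484 and at 835 and 1020. Ifi205 rested on 4 and 9 UMIs on chow and 7 and 14 on HFD. The part of released RNA in the diet effects was not tested.

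Whether a diet effect is carried by many cells or by a few was described after every cell was thinned to 1500 UMIs, leaving out shallower cells (42 and 169 of the C1q-high cells on chow, 59 and 62 on HFD). Zbp1 had a UMI in 3.46% and 3.87% of C1q-high cells on chow and in 23.9% (95% exact binomial interval 19.8 to 28.4%) and 30.6% (26.9 to 34.5%) on HFD. Samhd1 had one in 13.3% and 15.7% on chow and in 37.2% and 48.9% on HFD. Isg15 had one in 4.29% and 6.13% on chow and 16% and 24.4% on HFD, and Ifi205 in 0.693% and 0.595% on chow and 8.98% and 10.8% on HFD. At the same depth Plac8 had a UMI in 5.26% and 9.35% of these cells on chow and 68.3% and 75.1% on HFD. These intervals cover counting error only. Without thinning the shares for Zbp1 were 6.94% and 8.55% on chow and 39.8% and 51.5% on HFD.

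Among C1q-high cells with a Zbp1 UMI the mean number of its UMIs, which stays near 1 at such low levels, was 1.08 and 1.18 on chow and 1.43 and 1.56 on HFD. If all cells of a mouse had the same level, a Poisson spread at the same mean would give a UMI in 28.9% and 37.9% of cells on HFD, somewhat more than seen, and the variance was 1.61 and 1.62 times the mean. On chow these values were 3.67% and 4.48% of cells and 1.11 and 1.34 times. In the highest C1q bin on HFD, where the mean of Zbp1 was 0.198 and 0.203 UMIs per cell, the variance of Zbp1 was 1.31 and 1.21 times its mean and that of Samhd1 1.24 and 1.18 times, with a UMI in 15.7% and 16.3% of cells for Zbp1 and in 28.1% and 31.7% for Samhd1. A Poisson spread at the same means would give 18.0% and 18.4% for Zbp1 and 31.6% and 33.9% for Samhd1.

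In C1q-high cells the diets differed along the whole distribution. Cells without a UMI of any of the 6 genes made up 36.4% and 29.1% on chow and 12.7% and 8.80% on HFD. The summed UMIs of the 6 genes had a median of 1 and 1 on chow and 3 and 4 on HFD, a 75th percentile of 2 and 2 against 5 and 6, and a 90th percentile of 3 and 4 against 8 and 9. More than 4 UMIs, the 95th percentile of the chow cells, were found in 30.9% and 38.2% of the HFD cells. Without Ifi27l2a, the most abundant of the 6 in UMIs, the cells at 0 were 56.2% and 50.1% on chow and 30.9% and 22.7% on HFD.

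**Figure D3:**
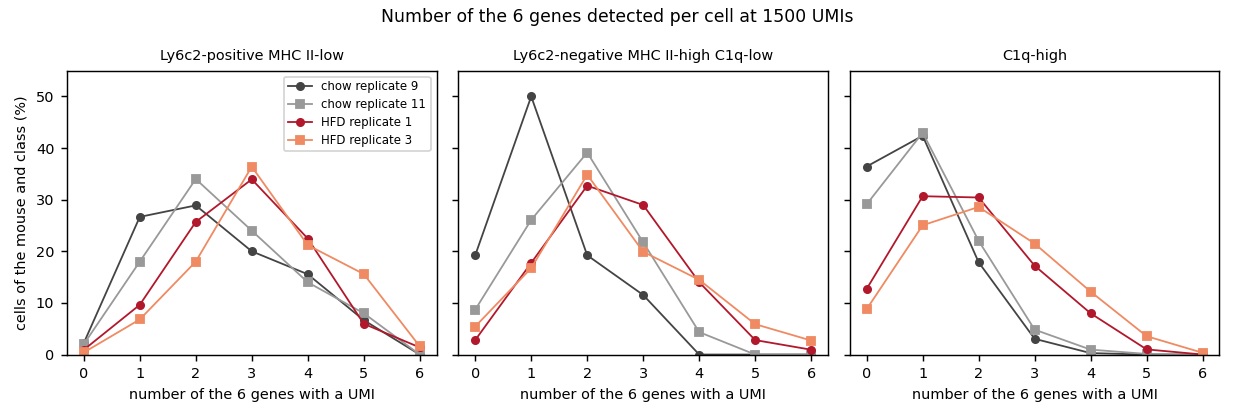
Share of cells (y, percent of the cells of a mouse and class) by how many of the 6 genes had a UMI at 1500 UMIs per cell (x); lines join the values of 1 mouse, black and grey for chow and red and orange for HFD. In C1q-high cells both HFD curves lie to the right, with 12.7% and 8.80% of cells at 0 against 36.4% and 29.1% on chow.

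In Ly6c2-positive MHC II-low cells the distributions of the diets overlapped. The summed UMIs of the 6 genes had a 10th percentile of 1 and 2 on chow and 3 and 4 on HFD and a median of 7 and 6 against 8 and 9. The highest cell had 28 and 26 on chow, among 45 and 50 cells, and 28 and 40 on HFD, among 218 and 250. Only 1.83% and 4.80% of the HFD cells exceeded 19 UMIs, the 95th percentile on chow. Samhd1 had a UMI in 68.9% and 78.0% of these cells on chow and in 84.9% and 91.2% on HFD, and 3 or more UMIs in 20% and 22.0% against 46.3% and 63.2%. Zbp1 had one in 33.3% and 22.0% against 51.8% and 56.8%. For Ifi27l2a the share was 73.3% and 84.0% on chow and 85.8% and 85.2% on HFD, while its variance was 7.67 and 4.25 times the mean on chow and 2.94 and 2.68 times on HFD. The share for Bst2 changed sign with the depth to which cells were thinned and is not given for this class.

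In Ly6c2-negative cells on chow only 26 and 23 cells were deep enough. Isg15 had a UMI in 0 and 1 of them, where 0 of 26 allows a share of cells with a UMI at this depth of up to 11.5% (3 counts; the exact binomial interval reaches 13.2%, and without thinning the class held 1 Isg15 UMI in that mouse), against 23.4% and 28.5% of 107 and 221 cells on HFD. Zbp1 had one in 15.4% and 13% on chow and 39.3% and 42.1% on HFD.

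The 6 genes were compared with a set of 10 antiviral genes known as strongly induced by type I interferon (Ifit1, Ifit2, Ifit3, Ifit3b, Rsad2, Cmpk2, Usp18, Oasl1, Mx1 and Mx2), a set drawn up after values had been seen. Their summed UMIs were spread unevenly over cells, with a variance of 13.7 and 4.31 times the mean in Ly6c2-positive MHC II-low cells on chow and 5.64 and 4.16 times on HFD. Of the cells of that class 80.0% and 76.0% on chow and 77.5% and 67.2% on HFD had none, while single cells held up to 21 and 8 UMIs on chow and 19 and 11 on HFD. In C1q-high cells a UMI of these genes was found in 5.40% and 8.27% of cells on chow and 9.98% and 16.4% on HFD. On HFD, C1q-high cells with such a UMI held Zbp1 in 37.5% and 43.3% of cases and those without one in 22.4% and 28.1%. Samhd1 was found in 30.0% and 47.4% of the cells with and 38.0% and 49.2% of the cells without such a UMI. The level of the cells without any such UMI on HFD exceeded that of all C1q-high cells on chow for both genes.

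Among C1q-high cells on HFD, those with an Isg15 UMI held Zbp1 in 34.4% and 40.3% of cases and those without one in 22.0% and 27.5%, and they held Samhd1 in 54.7% and 59.7% against 33.8% and 45.4%. These are shares of cells of the same libraries, given without a test.

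The other genes of the pathway were described from lists. Of 25 receptor, ligand and signalling genes, 16 were tested in C1q-high cells, of which 2 rose, 2 fell and 12 did not pass the threshold, with a median log2 fold change of -0.03 beside -0.02 over all genes, of which 5.35% were called higher and 5.13% lower. Irf7, the factor that amplifies type I interferon production, rose from 29.2 and 29.3 to 156 and 269 CPM (2.71 ± 0.25, adjusted p = 0.000392 with edgeR). The receptor subunit Il10rb fell by 1.03 ± 0.13 (adjusted p = 0.00165) and the signalling inhibitor Socs3 by 0.87 ± 0.13 (adjusted p = 0.00301), both with edgeR. The receptor Ifnar1 stood at 151 and 144 CPM on chow and 149 and 169 on HFD, which overlapped. Stat2 (0.83 ± 0.28) and Irf9 (-0.13 ± 0.17), which act in the ISRE-binding complex, did not pass the threshold. Of 16 tested in Ly6c2-positive MHC II-low cells 1 rose, beside 0.321% of all genes called higher. It was Irf1, a factor induced by both interferon types, from 99.5 and 109 to 531 and 576 CPM (2.28 ± 0.26, adjusted p = 0.000126 with edgeR). Socs3 was at 454 and 465 CPM in this class on chow and at 921 and 797 on HFD. That difference (0.77 ± 0.20) did not pass the threshold. The interferon genes themselves were sparse. In C1q-high cells Ifnb1 had 38 and 13 UMIs on chow and 6 and 9 on HFD, from class sums of unequal size. Once scaled as CPM, the diets overlapped for this gene. HFD replicates 1 and 3 (3.22 and 3.21) lay between chow replicate 11 (1.73) and chow replicate 9 (11.1). Ifng had 0 UMIs in C1q-high cells on chow and 1 on HFD.

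Partners of the genes were few. Of the ISG15 conjugation genes 2 were tested in C1q-high cells and none was called by edgeR (1 at an unadjusted p under 0.05, and 1 called by DESeq2), with Ube2l6, the conjugating enzyme, at 22.8 and 13 CPM on chow and 40.8 and 51.4 on HFD (1.28 ± 0.29, adjusted p = 0.0167 with edgeR). Of 8 partners of Zbp1 in necroptosis and inflammasome activation 3 rose in these cells, beside 5.35% of all genes: Ripk3, the kinase that Zbp1 recruits (1.05 ± 0.17, adjusted p = 0.00347), Pycard, an inflammasome adaptor (0.77 ± 0.13, adjusted p = 0.00525), and the pore-former Gsdmd (0.90 ± 0.15, adjusted p = 0.00397), with edgeR. Mlkl, the executor of necroptosis, did not pass the filter on low counts, with 7 and 18 UMIs on chow and 31 and 69 on HFD. None of 8 tested members of the IFI200 family and DNA sensing list was called in C1q-high cells by edgeR (median 0.32, 5 at an unadjusted p under 0.05, 0 by DESeq2). Of the list on deoxynucleotide pools around Samhd1, 1 gene was tested in these cells and not called by edgeR or DESeq2 (1 at an unadjusted p under 0.05). Beside these lists, edgeR called 10.5% of all genes tested in this class, so few calls are read from lists this short.

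Of the other type I interferon effectors 31 were tested in C1q-high cells; 6 rose, 1 fell and 24 did not pass the threshold, beside 5.35% of all genes called higher and 5.13% lower, with a median log2 fold change of 0.49. The largest rises were those of Ms4a4c (2.50 ± 0.15, from 86.4 and 98.0 to 529 and 629 CPM), the antiviral membrane protein Ifitm3 (1.83 ± 0.18), Nmi (1.48 ± 0.16) and Rtp4 (1.35 ± 0.24), with adjusted p-values from edgeR of 6.14e-05, 0.000497, 0.000927 and 0.00547. The summed monocyte markers in this class were at 346 and 533 CPM on chow and 2985 and 3843 on HFD, and Ms4a4c, Ifitm3 and Rtp4 were also higher in Ly6c2-positive MHC II-low than in C1q-high cells on chow. In Ly6c2-positive MHC II-low cells 0 of 47 were called by edgeR, with a median of 0.10 (5 at an unadjusted p under 0.05, and 0 by DESeq2) beside 0.513% of all genes, and in Ly6c2-negative cells 0 of 38 (8 and 0), with a median of 0.38, beside 0.369%.

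Genes that respond preferentially to interferon-gamma were described in the same way. This list, like the others, was chosen with earlier results of these data known. The paper names Cxcl9, Gbp2 and Gbp5 of this list as higher on HFD. Its counts and medians are therefore a description, and nothing is read from them. Of 22 tested in Ly6c2-positive MHC II-low cells 7 rose, none fell and 15 did not pass, with a median of 2.29, beside 0.321% of all genes called higher. Cxcl9, a chemokine for T cells, went from 12.4 and 18.1 to 608 and 755 CPM (5.33 ± 0.39, adjusted p = 2.50e-06). Gbp2 went from 68.4 and 151 to 1479 and 1987 CPM (3.84 ± 0.30, adjusted p = 3.90e-06). Calhm6 went from 43.5 and 78.5 to 640 and 649 CPM (3.26 ± 0.30, adjusted p = 1.34e-05), all with edgeR. Gbp5, a guanylate-binding protein, was among the 7 and went from 6.22 and 6.03 to 112 and 167 CPM. On chow Gbp5 rested on 1 UMI in each mouse, for which no fold is given. It reached the share of cells set by the filter through the HFD mice alone, and nothing is read from its call. Cxcl9 rested on 2 and 3 UMIs on chow. Without HFD replicate 1 or without HFD replicate 3, edgeR called 0 genes in this class, so these 7 calls and that of Irf1 were lost. In C1q-high cells 10 of 20 rose with a median of 0.92, beside 5.35% of all genes, and in Ly6c2-negative cells 3 of 22, with a median of 1.37 over all of these and 0.95 over the 19 with a UMI on chow, beside 0.174% of all genes. These 3 calls were also lost without HFD replicate 1 or without HFD replicate 3, where edgeR called 0 genes in that class. One of them, Serpina3g, named after its values were seen, had 0 UMIs in both chow mice and passed the filter on low values through the HFD mice alone. In C1q-high cells edgeR called fewer genes with any 1 mouse left out, as given below. Which of the 10 calls in that class were then lost is not given here. No difference between the lists was tested.

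**Figure D4:**
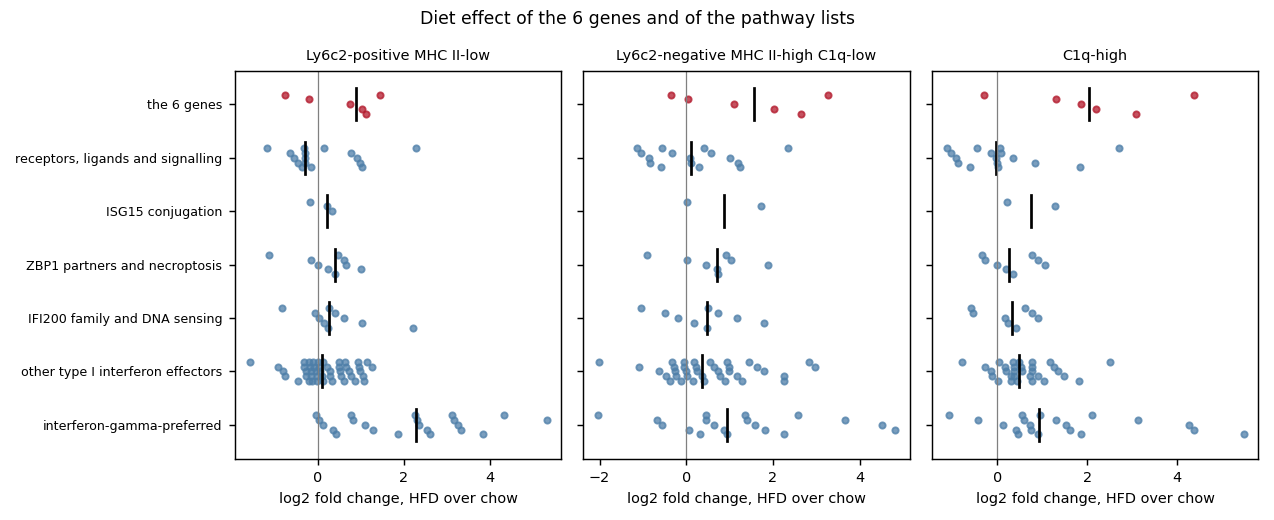
Log2 fold change of HFD over chow (x) for the 6 genes (red) and the genes of 6 pathway lists (blue) in the 3 classes; each point is a gene that passed the filter and had UMIs on both diets, and black bars are medians of the genes drawn. In Ly6c2-positive MHC II-low cells the interferon-gamma-preferred list has a median of 2.29 and the other type I effectors one of 0.10. The lists were chosen with earlier results of these data known, and no difference between them was tested.

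The other type I effectors were also compared between classes on chow. Between Ly6c2-positive MHC II-low and C1q-high cells 21 of 47 were higher and 2 lower in the former by edgeR and 24 were not called, with a median difference of 1.46 beside -0.09 over all genes, against 7.62% of all genes called higher. Among those higher in the former, the largest differences were those of Slfn1 (6.20 ± 0.57, adjusted p = 2.41e-11), Oas3 (4.41 ± 0.76, adjusted p = 1.82e-05), Ifitm3 (4.0 ± 0.17, adjusted p = 5.74e-21) and Ms4a4c (3.81 ± 0.15, adjusted p = 2.94e-21), with edgeR. Ifi27 was lower there by edgeR (-3.83 ± 0.39, adjusted p = 3.69e-10). Irf7, of the signalling list, differed by 4.31 ± 0.21 (adjusted p = 4.42e-19 with edgeR). Of the interferon-gamma-preferred genes 2 were higher and 4 lower, with a median of 0.02.

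Over the 12 sums of 3 classes and 4 mice, the genes whose log2 CPM followed the mean of the 6 genes most closely among 4087 genes were H2-D1 (Pearson's r = 0.97), Rpl36al (0.97), Clic1 (0.96), Ostc (0.95) and Fgr (0.95). The sums share libraries and cell classes, so these values are a description. Within the 6 genes, Zbp1 and Ifi205 followed each other most closely (r = 0.97), while the values for Bst2 ran from 0.13 with Zbp1 to 0.46 with Isg15.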

How the data were processed

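Single-cell 3′ RNA libraries (10x Genomics v2) of sorted colonic monocytes and macrophages were analysed for 4 mice, 2 per diet. The deposited table holds raw UMI counts per gene and cell, which the authors made with kallisto 0.46.0 and bustools 0.39.2 (submitters' processing notes) and an Ensembl mouse annotation, after removing low-quality cells, rare genes and other cell types. Counts were not normalized. Each cell was assigned to its mouse by the suffix of its barcode.

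Cells were gated by Ly6c2, MHC II and C1q UMIs, and UMIs were summed per mouse and class where each mouse had at least 20 cells, except that the Ly6c2-positive MHC II-high class was not tested. Genes above 1 CPM in 2 or more sums that were also seen in 5% of cells or more were tested with edgeR 4.0.16 (TMM, quasi-likelihood test, Benjamini-Hochberg adjustment over all genes, FDR 1%) in R 4.3.3. Class contrasts came from a joint edgeR model of mouse, class and class by diet. Standard errors are those of the log2 coefficients. For shares of cells, each cell was thinned once to 1500 UMIs. Python 3.11.15 and scanpy 1.11.5 were used, and Scrublet marked doublets, which were kept. The test scripts were tested on simulated data. Alternatives were DESeq2 1.42.0, edgeR's likelihood-ratio test, no filter, median cuts, 1 Ly6c2 UMI, no doublets, cells of middle depth, each mouse left out and, chosen after seeing the data, no antibody-rich cells. Any gene of the signalling, ISG15 conjugation and ZBP1 partner lists could be named, and of other lists the 4 largest called changes. The 5 most alike genes were those with the highest Pearson's r. Ifi27, Plac8, Chil3 and the antibody genes were named after their values were seen. The 6 genes and all lists were chosen with earlier results of these data known. Each mouse was 1 well, so p-values between diets measure the spread between mice together with that between wells. With 2 mice per group an exact permutation test of the diets cannot go below 0.33. The class contrasts held a term for each mouse, so their p-values do not measure that spread. They measure the spread left after that term, to which the HFD sums also added. The values of 1 gene of the signalling list are not reported here, although it is counted in the list.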

Additional observations from a re-analysis of the deposited data

Results flagged for a closer look

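Cells outside the 4 classes (63 and 55 on chow, 86 and 111 on HFD) entered no comparison, and for 5 of the genes both HFD mice were above both chow mice there. The mean level on HFD was 282 CPM for Isg15 (58.1 on chow), 559 for Zbp1 (135), 162 for Ifi205 (61.3), 2198 for Samhd1 (651) and 236 for Bst2 (156). Ifi27l2a overlapped between diets in these cells. The share of all genes with both HFD mice above both chow mice was not counted here. The genes were chosen on this contrast, so nothing is read from the count.

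For Ifi27l2a, both HFD mice were below both chow mice in Ly6c2-positive MHC II-low and Ly6c2-negative cells and above them in C1q-high cells. The log2 fold changes in these 2 classes were -0.20 ± 0.17 and -0.35 ± 0.18 (SE), the first was -0.01 with no filter and the second 0.16 with median cuts, and in the lowest MHC II bin the gene was higher on HFD in both mice. The diet effect differed from that in C1q-high cells by -1.41 and -1.51 (log2), respectively. As the gene was chosen on this contrast, the difference was not tested.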

How the results depend on the processing

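No paired analysis was possible because the chow and HFD mice share no replicate number. No called result changed sign. Of 287 alternative values for 24 diet effects of the 6 genes, 252 stayed within 1 SD between mice and 35 moved by more. Of the 287, 4 took the other sign, all in Ly6c2-negative cells (Bst2 3 times and Ifi27l2a at 0.16 with median cuts). Of 162 values for 18 differences in the share of cells 30 moved and 9 took the other sign, all for Bst2 or Ifi27l2a, and of 216 values for the class differences on chow 201 kept their side of the threshold, 12 lost a call and 3 gained one. Zbp1 gained a call against Ly6c2-negative cells with median cuts (1.67) and with DESeq2 (1.53), and Ifi205 with median cuts (2.72). With no filter the median of all genes shifted by 0.19 in Ly6c2-positive MHC II-low cells and 0.30 in Ly6c2-negative cells. There Bst2 in Ly6c2-positive MHC II-low cells was at -0.58 and Ifi27l2a at -0.01.

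The number of genes called depended on the setting, and the cause was not tested. In Ly6c2-positive MHC II-low cells it was 24, and 86 with the likelihood-ratio test, 112 with no filter, 55 with median cuts, 37 with 1 Ly6c2 UMI and 0 to 54 with 1 mouse left out. In Ly6c2-negative cells it was 17, and 50 with DESeq2, 153 with the likelihood-ratio test, 184 with no filter, 246 with median cuts, 88 with 1 Ly6c2 UMI, 36 without doublets, 65 in cells of middle depth and 0 to 38 with 1 mouse left out. In C1q-high cells it was 531, and 927, 910 and 228 with the likelihood-ratio test, no filter and median cuts, and 32 to 489 with 1 mouse left out. Over all cells it was 803, and 1306 and 1218 with the likelihood-ratio test and no filter, and 150 to 920 with 1 mouse left out. On chow, 824 genes differed between Ly6c2-positive MHC II-low and C1q-high cells (481 to 739 with 1 mouse left out), 128 between Ly6c2-positive MHC II-low and Ly6c2-negative cells (347 with median cuts, 39 to 136) and 277 between Ly6c2-negative and C1q-high cells (154 with median cuts, 125 to 275). Without HFD replicate 1 or 3, edgeR called 0 genes in Ly6c2-positive MHC II-low cells (175 and 202 at an unadjusted p under 0.05, 4 and 5 by DESeq2) and 0 in Ly6c2-negative cells (182 and 177, 9 and 6 by DESeq2). A group left with 1 mouse was assumed to vary like the other. The share of Ly6c2-positive MHC II-low cells with Bst2 was 10.6 percentage points lower on HFD at 1500 UMIs, 4.74 higher at 1000 and 4.61 higher at 2500. Both C1q-low classes held few cells on chow.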
